A study of Homo sapiens with 6 samples.

Results

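Histone genes were followed on 6 expression arrays of HCC-LM3 cells with and without an shRNA against ASPP2. The members are all array features whose file name for the gene begins with HIST1H, HIST2H, HIST3H, HIST4H, H1F, H2AF, H2BF or H3F. This gave 151 features of 80 genes, out of 45033 features and 23593 named genes on the array. Of these, 110 features (60 genes) belong to the replication-dependent clusters, 34 features (16 genes) to variants named outside the clusters, and 7 features (4 genes) to cluster members known from testis. HCC-LM3 is an established metastatic liver carcinoma line, grown in DMEM with fetal bovine serum. All cells carried a lentivirus, either LV-shASPP2 or the control LV-shNon, and RNA was collected one week after infection. Each group comprised 3 cultures, named shNon 1 to 3 and shASPP2 1 to 3 here. As a model each group is limited to a single labelled shRNA in infected populations, and no rescue or second shRNA was analysed here.

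Histone proteins package DNA into nucleosomes: H2A, H2B, H3 and H4 form the core around which DNA winds, and H1 binds the linker between cores. The clustered replication-dependent genes lack introns, are transcribed mainly in S phase, and give mRNAs that end in a stem-loop in place of a poly(A) tail. Variant genes such as H2AZ1 or H3-3A lie alone, make ordinary polyadenylated mRNAs through the whole cell cycle, and some clustered genes can also give longer polyadenylated transcripts. The cDNA priming is not given in the sources used here, so the share of tail-less histone mRNA that reached the arrays is unknown.

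The arrays had similar distributions, with median intensities of 111 to 122. Pearson correlations of log2 values over all features were 0.958 to 0.972 within shNon, 0.983 to 0.985 within shASPP2 and 0.959 to 0.979 between the groups. TP53BP2, which encodes ASPP2, had intensities of 332, 488 and 452 in shNon and 228, 216 and 147 in shASPP2. Its log2 fold change (shASPP2 minus shNon) was -1.11 (SE 0.249), with every shASPP2 array below every shNon array and an adjusted p of 0.203 in limma. A second, dimmer TP53BP2 feature gave -1.41 (SE 0.209, limma adjusted p 0.0991), also with every shASPP2 array below shNon. Of the markers of hepatocyte lineage, 5 of 9 lay over a floor of 2 times the signal of random-sequence probes. HNF4A and TF were among them, while APOA1, APOB, TTR and SERPINA1 were not. Fibroblast (4 of 7 over that floor), endothelial (2 of 5), leukocyte (2 of 6) and male germ cell markers (3 of 6) were summed on each array. The fibroblast sum ran from 505 to 736 in shNon and from 579 to 751 in shASPP2, and the leukocyte sum from 337 to 529 and from 379 to 593. The endothelial sum was 2025 to 2137 in shNon and 987 to 1220 in shASPP2, and the male germ cell sum 371 to 497 and 309 to 403. Most of the endothelial sum was PECAM1 alone, at 1927, 1901 and 1769 in shNon and 1063, 815 and 1025 in shASPP2, while VWF, KDR and TEK were under the floor. The part of these sums in the histone values was not tested.

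Replication-dependent histone features lay mostly higher in shASPP2 than in shNon, and the variants did not. The median log2 fold change was 0.58 over the 110 replication-dependent features, which is 1.49-fold, against 0.01 over all features. It was -0.07 over the 34 variant features and -0.21 over the 7 testis features, so the replication-dependent median lay 0.64 above the variant median. Log2 fold changes were above 0 for 98 of the 110 replication-dependent features and for 13 of the 34 variant features, beside 51.1% of all features. With 1 feature for each gene the medians were 0.57 over the 60 replication-dependent genes and -0.07 over the 16 variant genes.

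No single histone feature passed the threshold. At an adjusted p under 0.05 (limma, Benjamini-Hochberg over all 45033 features) the higher calls were 0.0533% and the lower calls 0.0844% of all features, and 0 histone features were among either. The smallest adjusted p of a histone feature was 0.0998. At an unadjusted p under 0.05, 56 histone features were higher, beside 5.7% of all features, and 2 were lower, beside 5.68%. All 3 shASPP2 arrays lay above all 3 shNon arrays for 62 histone features, beside 9.46% of all features, and below them for 5, beside 9.17%. For single values an exact permutation test of 3 arrays against 3 cannot give a p below 0.1. With a variance that follows the signal level and is robust to outlying features (limma's trend and robust options), 24 histone features passed the same threshold as higher, beside 1.02% of all features. In that fit 1 histone feature passed as lower, beside 1.09%. Histone features share arrays and, in part, nearly identical coding sequence, so these counts are not counts of independent genes.

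How bright the features were sets how far a size can be read. A row of random-sequence probes on the same arrays measured unspecific signal, at 31.8 to 33.3 in shNon and 30.4 to 30.8 in shASPP2, and a floor was set at 2 times that level. Over this floor in the higher group lay 111 of the 151 histone features. Among replication-dependent types these were 7 of 11 features of H1, 25 of 26 of H2A, 28 of 31 of H2B, 12 of 22 of H3 and 11 of 20 of H4. Of the variant features 27 of 34 were over the floor, and of the testis features 1 of 7. A feature near the floor carries unspecific signal in both groups, so its fold change can be understated. Within features over the floor the groups did not overlap, with shASPP2 above, for 51 of 83 replication-dependent and 6 of 27 variant features, beside 12.6% of all features over the floor. A feature that is over the floor only where its group is high is favoured by this choice, and these counts are given as a description.

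**Figure D1:**
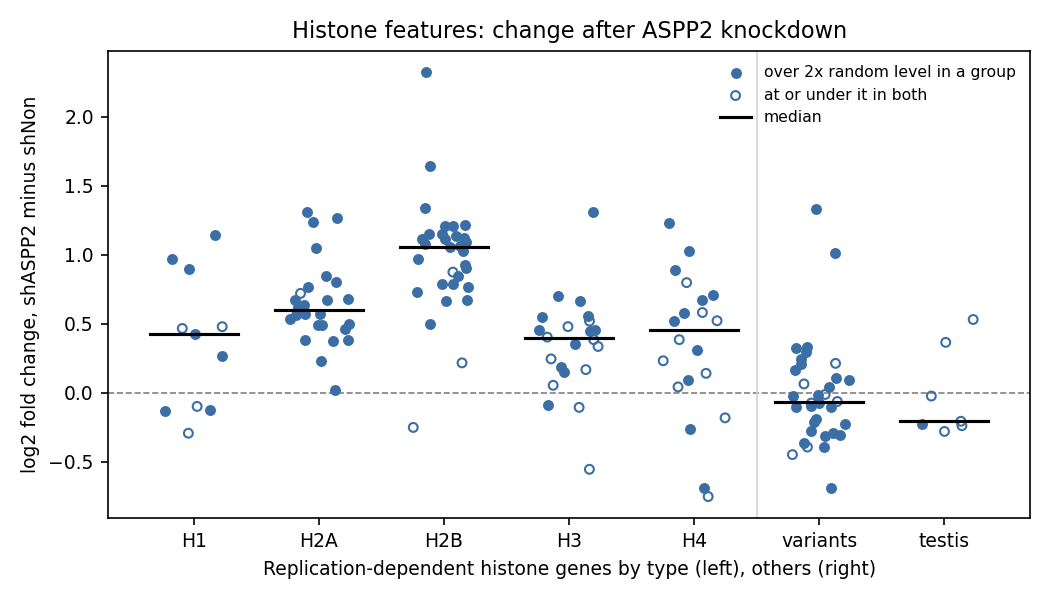
Log2 fold changes (shASPP2 minus shNon) of every histone feature by type, with filled and open points for features over and under the floor and a bar at the median of each type. The H2B median lies at 1.06, the other replication-dependent medians between 0.40 and 0.60, the variant median at -0.07 and the testis median at -0.21.

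The plot of fold changes by type shows 1 group standing higher than the others. Replication-dependent H2B had a median log2 fold change of 1.06, or 2.08-fold, over 31 features of 16 genes, with a range from -0.25 to 2.33. H2A had 0.60 (26 features, all above 0), H4 0.45 (20 features), H1 0.43 (11 features) and H3 0.40 (22 features). Unadjusted p was under 0.05 in limma, in the higher direction, for 29 of 31 H2B, 13 of 26 H2A and 3 of 11 H1 features. This was so for 6 of 20 H4 and 2 of 22 H3 features, beside 5.7% of all features. The H3 share of 9.09% was the nearest to that of all features. H3 and H4 were the dim types, and the difference between types in log2 fold change was not tested.

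The types also differed in how evenly the arrays carried the shift. For each array the median over a type's features of the log2 difference from the shNon mean was taken. For H2B it was 0.03, 0.03 and -0.06 in shNon and 1.03, 1.02 and 0.92 in shASPP2, 2 sets of values far apart. For H2A it was 0.24, 0.29 and -0.47 in shNon and 0.61, 0.52 and 0.68 in shASPP2. The array of shNon 3 was thus the low one for H2A, and without it the H2A median fold change was 0.45. For H1 the shNon values of 0.34, -0.14 and -0.05 overlapped the shASPP2 values of 0.33, 0.13 and 0.38, and the H1 median fold change was 0.18 without shNon 3. It was 0.93 over the 4 H1 features at or above the median level of all features, and 0.27 with 1 feature for each of the 5 genes. For H3 the values were 0.09, -0.03 and -0.07 against 0.32, 0.32 and 0.42, and for H4 -0.28, 0.10 and 0.05 against 0.50, 0.30 and 0.42. For the variants they were -0.02, -0.03 and 0.06 against -0.10, -0.06 and -0.02. In bulk RNA, more cells that express a gene and more of its RNA in each cell cannot be told apart.

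**Figure D2:**
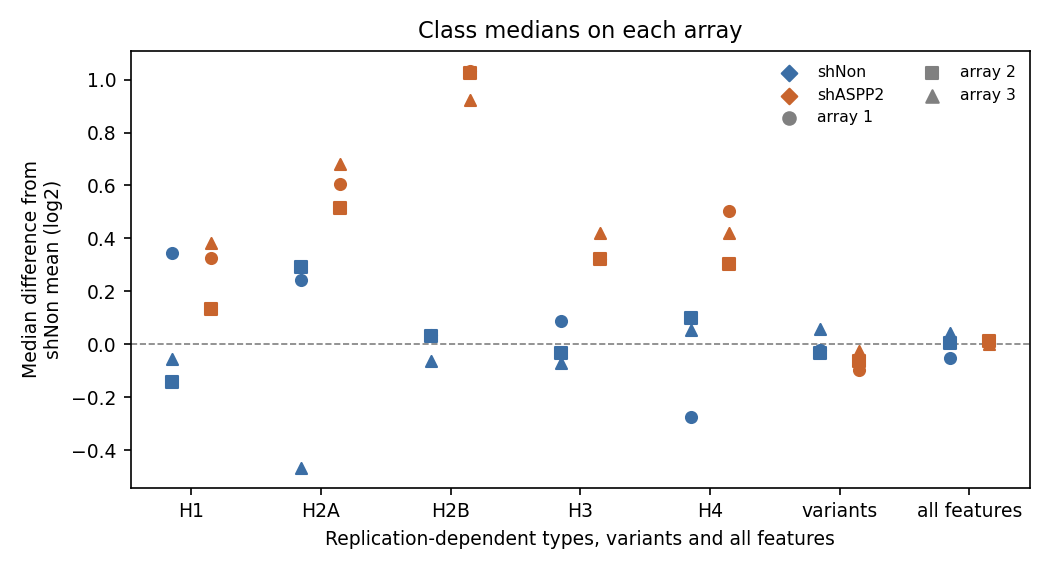
Median log2 difference from the shNon mean over the features of each histone class, 1 point for each of the 6 arrays, with all features at the right for comparison. The H2B points of shASPP2 sit at 0.92 to 1.03 and those of shNon at -0.06 to 0.03, while the variant points of both groups lie between -0.10 and 0.06.

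H2B is the core histone that pairs with H2A. All 16 replication-dependent H2B genes had, by their brightest feature, shASPP2 arrays that lay above every shNon array. This was so for 9.3% of all genes read in the same way. The brightest feature of H2BC3 lies at H2BC21, so these are not readings of 16 separate genes. A dimmer feature at H2BC3 itself had 512, 437 and 310 in shNon and 619, 722 and 800 in shASPP2. Its log2 fold change was 0.79 (SE 0.236), and its groups did not overlap either. For H2BC21 the margin was narrow, with a lowest shASPP2 value of 1633 and a highest shNon value of 1622. H2BC7, on chromosome 6 from 26307765 to 26308195 (hg18), had intensities of 344, 332 and 333 in shNon and 685, 743 and 688 in shASPP2. The shNon mean was 336 ± 6.80 and the shASPP2 mean 705 ± 32.4 (SD, n = 3 each), and its log2 fold change of 1.07 (SE 0.161, 95% interval 0.69 to 1.44) had the smallest adjusted p of the histones, 0.0998 in limma. Neither group of this gene reached into the other, and the spread within each was small. With trend and robust variance its adjusted p was 0.00291, and the threshold was also passed in limma where dim features were left out. H2BC9 had 269, 277 and 241 in shNon and 694, 549 and 503 in shASPP2, a log2 fold change of 1.14 (SE 0.193, limma adjusted p 0.128). H2BC12, which spans 27214050 to 27222596 and so reaches over the neighbouring H4C9, had 266, 338 and 405 in shNon and 774, 797 and 570 in shASPP2. The log2 fold change of H2BC12 was 1.09 (SE 0.234, limma adjusted p 0.194). H2BC17, among the brighter H2B genes, had 641, 542 and 656 in shNon and 1119, 1162 and 1017 in shASPP2, a log2 fold change of 0.84 (SE 0.175, limma adjusted p 0.184). In none of the 3 did the groups overlap.

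The naming rule did not pick the other 12 H2B genes, which spread more widely than these 4. Their log2 fold changes were 1.34 for H2BC10, 1.21 for H2BC26, 1.15 for H2BC14, 1.12 for H2BC6 and for H2BC8, 1.03 for H2BC11, 0.91 for H2BC5, 0.79 for H2BC15, 0.73 for H2BC4, 0.67 for H2BC13, 0.66 for H2BC3 and 0.50 for H2BC21. The value of H2BC3 comes from a feature that the file places at H2BC21 on chromosome 1, so it may read that gene. The dimmer feature at H2BC3 itself gave 0.79. H2BC26, of the small HIST3 cluster on chromosome 1, and H2BC6 had a low value on shNon 3 (590, 663 and 216 over the shNon arrays of H2BC26, and 600, 517 and 219 over those of H2BC6). Of the other large values, H2BC10 (277, 157 and 109), H2BC14 (344, 238 and 125) and H2BC11 (373, 237 and 155) were also lowest there. A second feature of H2BC10, under the floor, gave 0.22 with overlap, and one of H2BC14 gave 1.65 without overlap. H2B coding sequences are close to identical, probe sequences were not used here, and the 16 values cannot be taken as separate readings of 16 mRNAs.

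**Figure D3:**
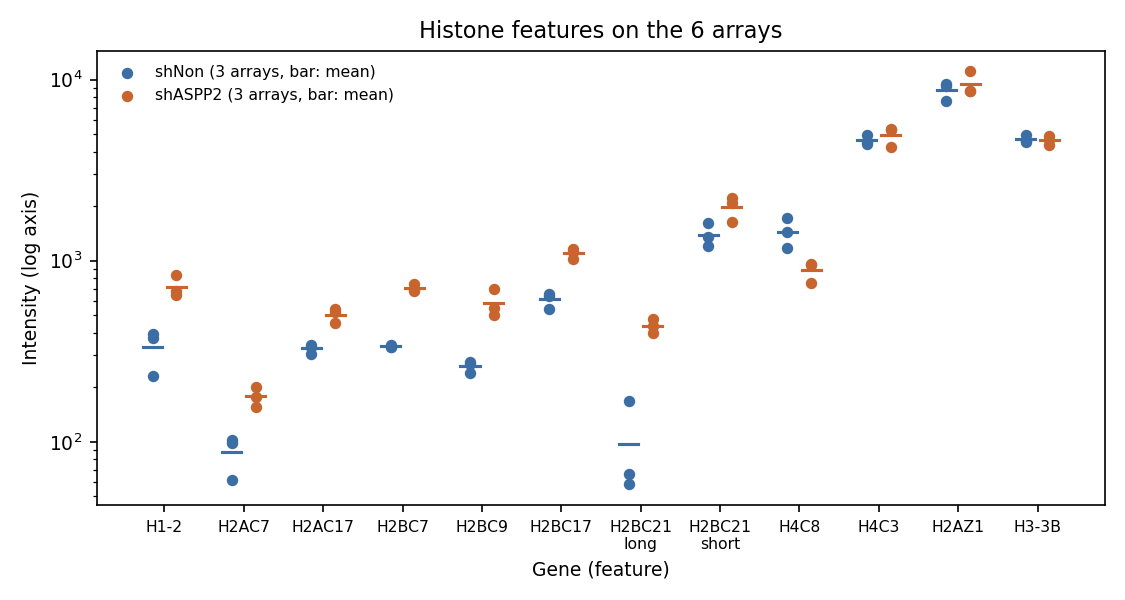
Intensities (log scale) on the 6 arrays for named histone genes, with shNon and shASPP2 points side by side and a bar at each group's mean. H2BC7 sits at 332 to 344 in shNon and 685 to 743 in shASPP2, whereas the groups of H4C3 overlap between 4272 and 5372.

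Promoters of 5 genes are printed to show a short motif that most H2A and H2B promoters held and few of the other histone types did. The sequences are the 200 bases before the RefSeq transcription start on GRCh38.p14, 5′ to 3′ on the strand of the gene. Capitals mark matches, on either strand, to ATTTGCAT (reverse ATGCAAAT, the octamer that POU factors such as POU2F1 bind), TATAAA (reverse TTTATA, the TATA box) and CCAAT (reverse ATTGG, the NF-Y box). H2BC7 lies at chr6:26199316-26199515 (plus strand), H2BC9 at chr6:26251414-26251613 (plus strand) and H2BC21 at chr1:149886683-149886882 (minus strand). H1-2 lies at chr6:26056471-26056670 (minus strand) and H4C8 at chr6:26285535-26285734 (minus strand). The last 2 are shown as the H1 gene with the largest shift and as an H4 gene that lay lower.
H2BC7: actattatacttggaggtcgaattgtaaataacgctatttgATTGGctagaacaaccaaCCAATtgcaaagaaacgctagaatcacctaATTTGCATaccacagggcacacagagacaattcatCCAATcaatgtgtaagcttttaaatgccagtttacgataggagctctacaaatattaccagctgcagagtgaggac
H2BC9: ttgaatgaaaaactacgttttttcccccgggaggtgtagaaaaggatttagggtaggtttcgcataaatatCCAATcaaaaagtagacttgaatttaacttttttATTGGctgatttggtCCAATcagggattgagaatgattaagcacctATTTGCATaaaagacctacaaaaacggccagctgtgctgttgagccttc
H2BC21: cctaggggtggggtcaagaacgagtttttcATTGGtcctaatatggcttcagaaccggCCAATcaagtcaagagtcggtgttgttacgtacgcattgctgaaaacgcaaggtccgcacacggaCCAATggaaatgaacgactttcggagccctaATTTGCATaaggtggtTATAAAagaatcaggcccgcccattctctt
H1-2: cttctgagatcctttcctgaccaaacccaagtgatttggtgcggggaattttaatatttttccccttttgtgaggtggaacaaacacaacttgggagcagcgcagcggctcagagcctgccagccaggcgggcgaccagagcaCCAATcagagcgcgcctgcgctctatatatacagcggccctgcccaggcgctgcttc
H4C8: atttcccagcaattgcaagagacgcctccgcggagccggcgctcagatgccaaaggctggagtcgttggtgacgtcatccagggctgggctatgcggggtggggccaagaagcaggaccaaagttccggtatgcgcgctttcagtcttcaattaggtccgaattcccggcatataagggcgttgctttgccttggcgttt

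The 3 H2B windows each hold 1 octamer and 3 CCAAT matches, and H2BC21 also holds TATAAA at 30 bases before the start. The first base of the octamer lies 111 bases before the start in H2BC7, 49 in H2BC9 and 46 in H2BC21. H1-2 has 1 CCAAT, and H4C8 has none of the 3 motifs in this window. RefSeq promoters matched 73 of the 80 genes. In the 250 bases before the start the octamer was present in 12 of 16 H2B promoters, 10 of 14 H2A, 1 of 9 H3, 0 of 5 H1, 0 of 11 H4 and 1 of 14 variant promoters, beside 1.66% of all 27305. CCAAT was present in all 5 H1, 14 H2A, 16 H2B and 9 H3 promoters, in 3 of 11 H4 and 11 of 14 variant promoters, beside 33.0% of all. TATAAA was present in 11 of 16 H2B, 10 of 14 H2A, 6 of 9 H3, 3 of 5 H1, 6 of 11 H4 and 4 of 14 variant promoters, beside 11.1% of all. Such a match is a description of letters and not a site in use. The 12 H2B genes with an octamer had a median log2 fold change of 1.08 (0.50 to 1.34) and the 4 without had 0.85 (0.67 to 1.21), ranges that overlap. Among the 12, H2BC3 was read by its feature placed at H2BC21. Many H2A and H2B genes lie in head-to-head pairs whose promoter windows overlap, so their octamer counts are not separate. The part of the octamer in the fold changes was not tested.

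H2A and H2B genes often lie head to head, and 10 such pairs had starts 194 to 248 bases apart, so that their promoter windows overlap. Within these pairs the median log2 fold change was 0.59 for H2A and 0.94 for H2B, with a median difference of 0.36. H2B had the larger value in 8 of the 10. In the pair H2AC14 and H2BC14 the values were 0.39 and 1.15, in H2AC13 and H2BC13 0.02 and 0.67, and in H2AC25 and H2BC26 0.47 and 1.21. In the pair of H2AC7 and H2BC7 they were nearly equal at 1.05 and 1.07. H2AC6 with H2BC4 (0.77 and 0.73) and H2AC20 with H2BC21 (0.80 and 0.50) ran the other way. The pair differences have no test of their own, and the SEs of the single genes ran from 0.161 to 0.644.

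**Figure D4:**
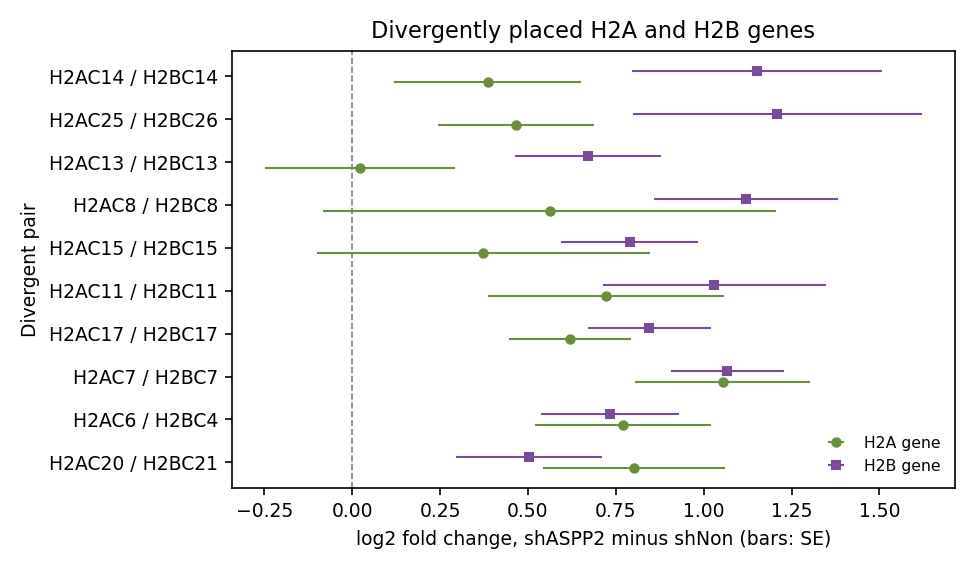
Log2 fold changes (shASPP2 minus shNon, horizontal axis, bars are SE) of the H2A gene (circles) and the H2B gene (squares) in 10 head-to-head pairs, 1 pair a row. The square lies to the right in 8 rows, and H2AC20 with H2BC21, at 0.80 and 0.50, shows the widest gap the other way.

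H2A genes encode the partner of H2B in the nucleosome core. H2AC7 had intensities of 102, 98.8 and 61.4 in shNon and 178, 155 and 202 in shASPP2, a log2 fold change of 1.05 (SE 0.249, limma adjusted p 0.218). H2AC17 had 305, 335 and 342 in shNon and 519, 452 and 542 in shASPP2, a log2 fold change of 0.62 (SE 0.172, limma adjusted p 0.270). Its other 2 features gave 0.58 and 0.68, so the 3 readings of this gene were alike. H2AC20, of the cluster on chromosome 1, had 1133, 1102 and 632 in shNon and 1631, 1494 and 1716 in shASPP2. The log2 fold change of H2AC20 was 0.80 (SE 0.260, limma adjusted p 0.331), and its lowest value was again shNon 3. H2AC6 had 206, 225 and 135 in shNon and 278, 378 and 296 in shASPP2, a log2 fold change of 0.77 (SE 0.251). Its 2 dimmer features gave 1.31 and 1.27, the one at 1.31 over the floor only in shASPP2. No shASPP2 array of these 4 genes reached down to a shNon array. The smallest log2 fold change of the type was 0.02, in H2AC13.

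H1 is the linker histone, and of its 5 clustered genes H1-2 had the largest value. H1-2, on chromosome 6 from 26163913 to 26164671 (hg18), had intensities of 394, 232 and 373 in shNon and 650, 831 and 678 in shASPP2. The shNon mean was 333 ± 88.3 and the shASPP2 mean 720 ± 97.7 (SD, n = 3 each), with a log2 fold change of 1.14 (SE 0.252, 95% interval 0.55 to 1.73, limma adjusted p 0.198). The groups did not overlap, and a second feature gave 0.90. With trend and robust variance the adjusted p was 0.00634. By their brightest features the other H1 genes had log2 fold changes of 0.43 (H1-1, SE 0.317), 0.27 (H1-5, SE 0.267), -0.13 (H1-4, SE 0.422) and -0.10 (H1-3, SE 0.313), and their groups overlapped. A second feature of H1-1, about as bright, had 264, 259 and 94.5 in shNon and 333, 322 and 455 in shASPP2. This gave 0.97 (SE 0.410, limma adjusted p 0.435) with no overlap, so the 2 readings of H1-1 were unlike, and shNon 3 was the low array in both. H1-3 did not reach the floor.

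H3 and H4 form the tetramer at the centre of the core. By the brightest feature of each gene H3C14 had the smallest p of H3, with 48.4, 80.1 and 55.7 in shNon and 99.3, 104 and 89.6 in shASPP2, a log2 fold change of 0.70 (SE 0.229, limma adjusted p 0.336). H3C1, H3C10 and H3C7 had 0.56, 0.55 and 0.46 by their brightest features, with groups that overlapped. The 2 dimmer features of H3C7 had log2 fold changes of 1.31 (SE 0.419, limma adjusted p 0.325, the smallest of H3) and 0.52. Both had all shASPP2 arrays above shNon, so the 3 readings of this gene were unlike. The feature at 1.31 was over the floor only in shASPP2 and the one at 0.52 in neither group. Median intensities of H3 features were 39.4 to 46.9 in shNon and 57.9 to 58.0 in shASPP2, all below the floor. The named features of H3C14, H3C1, H3C10 and H3C7, and of H4C9 and H4C5 below, were over the floor only in shASPP2. The naming rule thus favoured features that were higher there, and these values are a description. H4C9 had 49.8, 47.5 and 43.7 in shNon and 87.2, 81.0 and 64.4 in shASPP2, a log2 fold change of 0.71 (SE 0.189, limma adjusted p 0.257). It lies within the span of H2BC12, and the array's features there may share transcript. H4C5 had 29.1, 60.4 and 40.3 in shNon and 70.8, 90.9 and 142 in shASPP2, a log2 fold change of 1.23 (SE 0.349). H4C14 had 185, 126 and 71.9 in shNon and 254, 202 and 209 in shASPP2, a log2 fold change of 0.89 (SE 0.339). In all 3 of these H4 features the groups did not overlap. The other features of H4C5 gave 1.03 without overlap and 0.39 with overlap. Those of H4C9 gave 0.67 and 0.52, both with overlap. The features at 1.03 and 0.67 were over the floor only in shASPP2, and those at 0.39 and 0.52 in neither group.

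The 2 brightest H4 genes did not share that pattern. H4C3 is outside the naming rule and is given because it was the brightest H4 feature, at 4408, 4972 and 4519 in shNon and 5372, 4272 and 5245 in shASPP2. The fitted log2 difference was 0.09 (SE 0.180, 95% interval -0.33 to 0.51), and the groups overlapped. H4C8 lay lower, with 1171, 1435 and 1729 in shNon and 964, 950 and 752 in shASPP2. The log2 fold change of H4C8 was -0.69 (SE 0.215, with a 95% interval -1.20 to -0.19), with an adjusted p of 0.315 in limma and 0.0369 with trend and robust variance. This feature spans 26389261 to 26393741 on chromosome 6 (hg18). The short H4C8 feature, over the coding region from 26393332 to 26393706, was dim, and its log2 fold change was -0.26 (SE 0.273).

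A feature's span on the genome, from the start to the end of its transcript, can reach past the short histone message. Features with a long span were compared with short features of the same gene, a grouping chosen after the annotation was seen. Probe positions were not used, so a long feature may also read the short message. At or over 1000 bases on hg18 lay 24 replication-dependent features, with a median log2 fold change of 0.75, and the 86 shorter ones had 0.55. Of 16 genes with both kinds the long feature had the larger value in 9, and 10 differed by less than 0.25. Both features were over the floor, in the higher group, for 11 of the 16, and there the long one was larger in 6.

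The long feature of H2BC21, from 148122633 to 148124856 on chromosome 1 (hg18), had the largest log2 fold change of any histone feature. It was outside the naming rule and chosen after its values were seen. Its intensities were 66.7, 58.2 and 167 in shNon and 475, 434 and 397 in shASPP2, or 97.4 ± 60.7 and 435 ± 39.3 (SD, n = 3 each), with shNon 3 the high one of its group. The long feature thus had a log2 fold change of 2.33 (SE 0.389, with a 95% interval of 1.42 to 3.24, and a limma adjusted p of 0.126 or 5.66e-04 with trend and robust variance). The short feature of the same gene had 1199, 1356 and 1622 in shNon and 2082, 2208 and 1633 in shASPP2, a log2 fold change of 0.50 (SE 0.208). On each array the long feature's log2 value minus the short one's was -4.17, -4.54 and -3.28 in shNon and -2.13, -2.35 and -2.04 in shASPP2, so the groups did not overlap. H2AJ, a replication-independent H2A gene, gave a like contrast. Its long feature had 39.1, 82.1 and 32.0 in shNon and 123, 108 and 125 in shASPP2 (log2 fold change 1.34, SE 0.346), while its 2 short features had 0.04 and -0.21. That long feature was over the floor only in shASPP2, so the contrast is a description. The long-minus-short difference also had separate groups for H4C5 (above). There the long feature was over the floor only in shASPP2 and the short one in neither group. The groups were separate for H4C8 too (below), and they overlapped for the other 12 genes. H2BC15 had the widest gap of those 12, with -0.25 for a long feature under the floor and 0.79 for the short one.

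**Figure D5:**
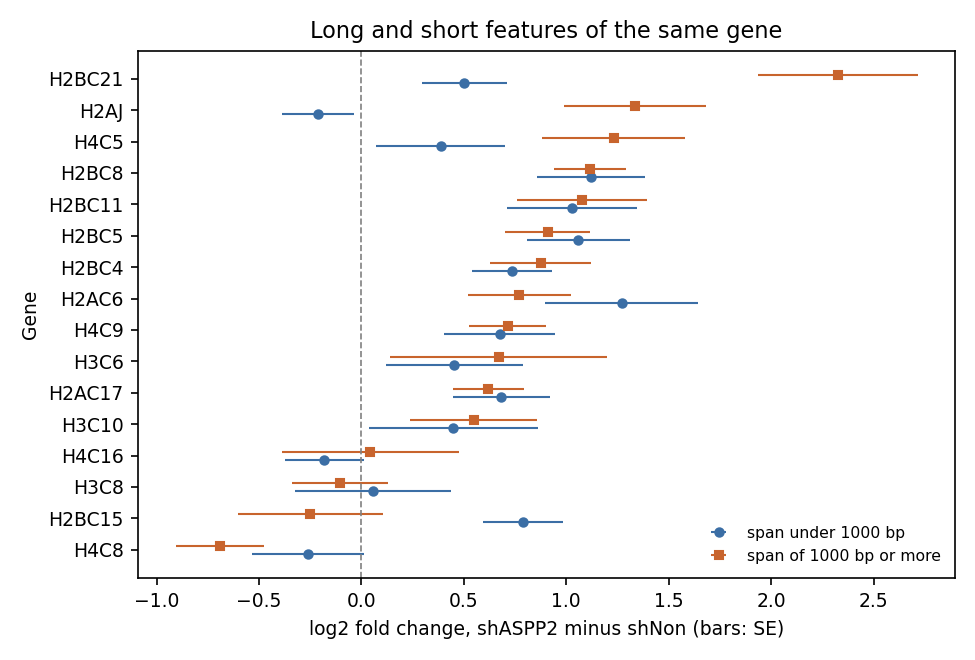
Log2 fold changes (shASPP2 minus shNon, horizontal axis, bars are SE) of the short-span feature (circles) and the long-span feature (squares) of 16 histone genes, 1 gene a row. H2BC21 (0.50 short, 2.33 long) and H2AJ (-0.21 and 1.34) have the squares farthest to the right of the circles.

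Variants replace the clustered histones outside replication and mark promoters, repair sites or silent chromatin. H3-3A and H3-3B both encode H3.3, the replacement H3, and their brightest features had log2 fold changes of -0.22 and -0.02. Other features of H3-3A gave -0.02, -0.10 and -0.08, and those of H3-3B gave 0.33 and 0.24. The 0.33 feature had all shASPP2 arrays above shNon, so the readings of H3-3B were unlike. The 0.24 feature was over the floor only in shASPP2, and its groups overlapped. H2AZ1 and H2AZ2 encode H2A.Z, found at promoters, and had 0.11 and -0.30. H2AX, whose phosphorylated form marks DNA breaks, had 442, 606 and 453 in shNon and 431, 590 and 679 in shASPP2, a log2 fold change of 0.17 (SE 0.238) with overlapping groups. MACROH2A1, linked to silent chromatin, had 4154, 4213 and 4071 in shNon and 4465, 4747 and 5210 in shASPP2, a log2 fold change of 0.21 (SE 0.165). All 3 of its features lay above, at 0.21, 0.30 and 0.34. H1-10, a variant linker histone, had -0.10 by its brightest feature and -0.69 by the other, so its 2 readings were unlike. The variants were bright, with array medians of 2416 to 3032, and 27 of their 34 features were over the floor.

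H2BC12L was the exception among genes counted as variants. It is named H2BFS in the file, lies on chromosome 21, and is a near copy of H2BC12 of the cluster. Its log2 fold change was 1.01 (SE 0.233, adjusted p 0.212 in limma and 0.0257 with trend and robust variance), close to the 1.09 of H2BC12. Whether the probes separate these 2 genes was not tested, and without H2BC12L the variant median remained -0.07.

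Genes that make, carry or use histones were read from lists drawn up for this comparison. No member of the 5 lists passed the adjusted threshold in limma, and 1, IPO4, passed it with trend and robust variance. Over all features an unadjusted p under 0.05 was reached by 5.7% as higher and by 5.68% as lower. Of 15 genes that process histone mRNA, 0 had an unadjusted p under 0.05, and the median log2 fold change was 0.11. SLBP, which binds the stem-loop and is outside the naming rule, had -0.03 (SE 0.235). ZNF473, of the U7 processing complex, had 0.37 (SE 0.167), LSM11, a U7 ring subunit, had 0.54 (SE 0.381) and NCBP2, of the cap-binding complex, had -0.35 (SE 0.192). Of 14 genes for histone gene transcription 0 had an unadjusted p under 0.05, with a median of 0.12. NPAT, the coactivator of histone genes in S phase, had 0.31 (SE 0.218), E2F1 had 0.47 (SE 0.222), and NFYC of the CCAAT-binding factor had 0.33 (SE 0.173). POU2F1, outside the naming rule, had -0.13 (SE 0.159). Of 24 histone chaperones and carriers 1 had an unadjusted p under 0.05, with a median of 0.13. That gene was IPO4, an importer of H3 and H4, with 716, 896 and 752 in shNon and 1135, 1360 and 1429 in shASPP2, a log2 fold change of 0.73 (SE 0.189, limma adjusted p 0.249, or 0.0187 with trend and robust variance). ATRX and SET, a remodeller and a chaperone, had 0.40 and 0.30. All shASPP2 arrays lay above shNon for 7 of the 24 chaperones and carriers and below for 0, beside 9.46% and 9.17% of all features. The same counts were 3 and 1 for the 15 processing genes, and 1 and 1 for the 14 transcription genes.

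Genes of the cell cycle gave a background for histones made in S phase. Of 28 S phase genes 0 had an unadjusted p under 0.05 as higher and 1 as lower, with a median log2 fold change of -0.03. RFC4, of the clamp loader, had -0.41 (SE 0.172), PCNA, the clamp itself, had -0.32 (SE 0.177) and MCM5, of the replicative helicase, had 0.32 (SE 0.184). All shASPP2 arrays lay above shNon for 0 of these 28 genes and below for 4, beside 9.46% and 9.17% of all features. Of 24 mitosis genes 1 lay higher and 1 lay lower with unadjusted p under 0.05 in limma, with a median of -0.13. All shASPP2 arrays lay above shNon for 2 of these 24 genes and below for 6. CDC20, an activator of mitotic exit, had 0.52 (SE 0.218), and the spindle motor KIF11 and the kinetochore gene NUF2 had -0.56 (SE 0.188) and -0.46 (SE 0.210). The part of cell cycle position in the histone values was not tested.

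The clusters and the testis genes complete the account. The HIST1 cluster on chromosome 6 had a median log2 fold change of 0.57 over 96 features, HIST2 had 0.70 over 9, HIST3 0.54 over 3 and HIST4, a single H4 gene under the floor, -0.07 over 2. The 4 testis genes H1-6, H2AC1, H2BC1 and H3-4 had array medians of 29.4 to 31.1 in shNon and 30.9 to 39.4 in shASPP2, at the level of the random probes. Their log2 fold changes ran from -0.28 to 0.53, and 1 feature of H3-4 was over the floor, at -0.22.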

How the data were processed

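RNA of 6 cultures, 3 of shNon and 3 of shASPP2, was hybridised to 1-colour (Cy3) NimbleGen arrays. The authors deposited 1 linear intensity for each feature and array, which per the submitters' processing notes came from RMA. The version and settings of RMA are not stated there. RMA as usually defined equalises arrays, which hides differences in total RNA. The deposited series value table, entered as a score, held the same values with 0 differing cells. Features mostly had 3 probes (45031 of 45033). Positions on hg18 are those of the files. Symbols were updated by gene identifier, and promoters taken, from RefSeq tables of GRCh38.p14.

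Log2 intensities of all 45033 features were fitted with limma 3.58.1 (lmFit, eBayes) (R 4.3.3) on group alone, two-sided, Benjamini-Hochberg adjusted over all features at 0.05. The fit was tested on simulated data. Precision is limited by having only 3 arrays a group. The brightest feature on average stood for a gene. Named were, above the floor of 2 times the random probes, up to 4 genes with the smallest p of each replication-dependent type and of the variants, H2AX, H2AZ1, MACROH2A1, H3-3A, H3-3B and H1-10 always, up to 3 genes of each list, and TP53BP2. The floor had to be passed in only the higher group, which favours features that differ. Others are outside the rule. A gene that the rule also takes is not reported here. The members, lists and rule were chosen with earlier results of these data known. Same-numbered arrays did not deviate together (r of 0.056, -0.076 and -0.126), so no pairing was used. The alternatives were 2 filters on dim features, array weights, cyclic loess, centring on medians, robust variance with a trend, the value table, a replicate block, 1 feature for each gene and leaving out each array.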

Additional observations from a re-analysis of the deposited data

How the results depend on the processing

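The direction of the replication-dependent median, and its lead over the variants, held under every alternative run. Against 0 histone features past the adjusted threshold, trend with robust variance in limma gave 25, the filter on features over 2 times the random level gave 4, the filter at the median level gave 9, array weights gave 1, and leaving out 1 array gave 0 to 1, the 1 without shNon 3. The replication-dependent median of 0.58 was 0.71 with the filter on the random level, 0.80 with the filter at the median level and 0.52 to 0.69 without 1 array. Its lead over the variants of 0.64 was 0.88 with the filter at the median level and 0.56 to 0.76 without 1 array, and the variant median was then -0.07 to -0.03. The variant median was -0.10 with median centring of each array and -0.09 with the filter at the median level. With 1 feature for each gene, 29 genes had an unadjusted p under 0.05 and 33 had groups that did not overlap, since fewer values were counted. These are 36.2% and 41.2% of the histone genes, beside 11.5% and 18.8% of all genes. Without 1 array the counts were 45 to 60 features, or 29.8% to 39.7%, beside 7.37% to 12.9% of all features, and 76 to 85 features, or 50.3% to 56.3%, beside 25.3% to 31.2%. With all arrays they were 38.4% beside 11.4% and 44.4% beside 18.6%, and fewer arrays raise the share without overlap for all features. The replicate block, where a number is not a known pairing, gave 53 features with an unadjusted p under 0.05 and 0 past the threshold. Leaving out 1 array reversed the sign of H1-4 (-0.56 to 0.30), H1-10 (-0.30 to 0.010), H3-3B (-0.060 to 0.028) and H2AZ1 (-0.0097 to 0.17). The cause of these shifts was not tested. The filter at the median level left no H3 feature to give a value. The filter on the random level kept features over it on at least 3 arrays. A feature over it only in shASPP2 could thus pass, which favours higher values under that filter.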

Other observations

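Some histone genes carry other names in the array's files and so fell outside the rule. By present symbols these were 14 features of 11 genes, with 2 at an unadjusted p under 0.05 in the higher direction (beside 5.7% of all features), 0 in the lower (beside 5.68%), and 0 past the adjusted threshold in limma. H4C15, an H4 gene of the chromosome 1 cluster, had intensities of 146, 235 and 273 in shNon and 353, 394 and 365 in shASPP2, a log2 fold change of 0.81 with groups that did not overlap. H3-7, an H3 gene on chromosome 1, had 77.0, 81.4 and 98.4 in shNon and 176, 163 and 117 in shASPP2, a log2 fold change of 0.81 by its brightest feature. H2BC18, H3C15 and H3C13 had 0.71, 0.86 and 0.53, with overlapping groups. CENPA, the H3 variant of centromeres, had 1609, 1304 and 1873 in shNon and 1610, 1521 and 1707 in shASPP2, a log2 fold change of 0.03. Log2 fold changes were 0.16 for H3-5, 0.02 for H3Y1, -0.02 for H1-9P, -0.05 for H2AP and 1.12 for H3Y2, all with overlapping groups. Many of these sequences nearly match members of the rule, so they are not separate evidence.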
